A study of Mus musculus with 61 samples.

Results

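The genes described here are 7 transcription factors that carry time-of-day signals from the circadian clock to its target genes: Dbp, Tef, Hlf, Nfil3, Bhlhe40, Bhlhe41 and Ciart. They were chosen by symbol from a table of 55011 genes, and each symbol matched 1 row. All 7 passed the filter on low counts in each of the 7 fits used.

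The clock of a cell turns on a loop in which BMAL1 (encoded by Arntl) and CLOCK activate genes through E-box sequences, among them the Per and Cry genes whose products shut the activators off. The same activators drive output factors. DBP, TEF and HLF, the proline- and acidic-rich (PAR) bZIP family, bind D-box sequences and activate genes of metabolism, and NFIL3 (E4BP4) represses through the same D-boxes. BHLHE40 and BHLHE41 (DEC1 and DEC2) compete at E-boxes and repress, and both also respond to signals outside the clock such as hypoxia, while CIART (CHRONO) binds BMAL1 and represses it. Skeletal muscle holds a clock of its own, which feeding and activity can set.

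RNA from whole skeletal muscle of mice was sequenced in 61 libraries of 22 groups. Wild-type C57BL/6J mice gave quadriceps and tibialis anterior (TA) at rest and 1, 2 and 7 days after acute exercise, with 3 libraries of each muscle and time, and the 2 muscles of an animal carry the same animal number. The muscles are labelled Qd and TA, and all other mice of known muscle gave quadriceps. In Foxp3-IRES-GFP.hDTR mice (DTR+) the Foxp3 locus drives a receptor for diphtheria toxin, so that the toxin removes regulatory T cells. DTR- mice were the controls, and both genotypes received the toxin. The acute experiment compared rest (3 DTR- and 2 DTR+ libraries), day 1 (3 of each genotype) and day 7 (2 of each). The training experiment compared rest with 2 weeks of exercise training in both genotypes, with 3 libraries a group. Trained, toxin-treated DTR+ mice also received an antibody that neutralises interferon-gamma or control IgG (3 libraries each), and sedentary 24-month-old C57BL/6JN mice received the same antibodies (2 each). The labels of the aged libraries do not name the muscle. Ages of the other mice and the hour of dissection, on which these genes depend, are not stated in the labels. The samples are labelled by animal or replicate number, and p-values measure the spread between them.

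Libraries held 3359683 to 14445336 counts. All 7 muscle fibre markers were detected in each group, with a summed level of 71160 to 219000 CPM (the counts-per-million unit). The 4 DTR+ libraries at rest and at day 7 of the acute experiment stood apart: 20.01% to 23.5% of their counts came from mitochondrially encoded genes, against 7.89% to 12% in DTR- libraries at rest and day 7 and 5.44% to 6.56% in the 6 libraries of day 1. They had 14701 to 15306 genes with at least 1 count, against 16508 to 18494 and 21211 to 26596. Their levels also fell with transcript length, with slopes of -0.469 to -0.438 log2 units per doubling of length, against -0.375 to -0.184 and -0.0862 to 0.00418. These properties move with genotype and time in that experiment, and their part in the differences below was not tested. In bulk tissue, fewer cells of a type and less RNA per cell cannot be told apart.

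In the annotation of GENCODE vM21 on GRCm38 all 7 are protein-coding genes. Dbp lies on chr7:45705088-45710203 (plus strand), Tef on chr15:81802421-81826863 (plus), Hlf on chr11:90336536-90390895 (minus), Nfil3 on chr13:52967209-52981073 (minus), Bhlhe40 on chr6:108660629-108666925 (plus), Bhlhe41 on chr6:145858243-145865558 (minus) and Ciart on chr3:95878503-95882251 (minus). Dbp overlaps Sphk2 on the opposite strand. Tef, Bhlhe40 and Ciart each overlap 1 antisense gene, and Bhlhe41 overlaps 1 gene on the opposite strand whose type the annotation leaves unsettled (TEC). Whether counting used strand is not given, so reads from such neighbours cannot be told apart. Hlf and Nfil3 overlap no other gene.

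Promoter windows from RefSeq (GRCm38.p6), running from 250 bases before to 50 bases after a transcript start, were found for 6 of the 7 genes, with 2 windows for Tef and none for Bhlhe40. The windows were searched on both strands for the palindromic E-box CACGTG, which 7.15% of the 32851 windows in the RefSeq table hold. Ciart held 3 copies, 116, 58 and 44 bases before the start. Each Tef window held 1 (127 and 138 bases before the start), and Bhlhe41 held 1 (153 bases before). The windows of Dbp, Hlf and Nfil3 held none. The ROR element core (TAGGTCA or TGGGTCA), to which ROR activators and REV-ERB repressors bind and which 6.45% of windows hold, was found in Nfil3 only among the 6 genes, on the opposite strand 12 bases before the start. The cAMP element TGACGTCA (1.79% of windows) was found in Hlf only, 9 bases before the start. The D-box (TTATGTAA or TTACGTAA, 1.06% of windows) was in none of them. A match describes the letters and is not evidence of binding. The 250 bases before the start are shown for the windows with an E-box and for Nfil3, in lower case with the E-box, or in Nfil3 the ROR core, in capitals, on the gene's own strand:
Ciart, chr3:95882229-95882478, minus strand: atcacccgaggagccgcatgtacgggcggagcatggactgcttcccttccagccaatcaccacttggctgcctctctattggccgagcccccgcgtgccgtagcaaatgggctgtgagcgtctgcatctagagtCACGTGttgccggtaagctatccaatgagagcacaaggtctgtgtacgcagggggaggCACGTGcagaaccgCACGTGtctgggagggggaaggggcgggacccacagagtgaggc
Tef, first start, chr15:81802423-81802672, plus strand: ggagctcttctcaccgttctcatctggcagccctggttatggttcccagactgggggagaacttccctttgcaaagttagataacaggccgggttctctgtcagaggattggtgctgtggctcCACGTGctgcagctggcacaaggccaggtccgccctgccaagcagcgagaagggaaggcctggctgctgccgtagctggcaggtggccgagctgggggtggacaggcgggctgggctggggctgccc
Tef, second start, chr15:81811164-81811413, plus strand: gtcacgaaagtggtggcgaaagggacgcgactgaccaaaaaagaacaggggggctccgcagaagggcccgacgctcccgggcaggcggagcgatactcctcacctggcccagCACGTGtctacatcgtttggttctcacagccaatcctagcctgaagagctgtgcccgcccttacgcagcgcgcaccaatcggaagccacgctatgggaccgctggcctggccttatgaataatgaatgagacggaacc
Bhlhe41, chr6:145865421-145865670, minus strand: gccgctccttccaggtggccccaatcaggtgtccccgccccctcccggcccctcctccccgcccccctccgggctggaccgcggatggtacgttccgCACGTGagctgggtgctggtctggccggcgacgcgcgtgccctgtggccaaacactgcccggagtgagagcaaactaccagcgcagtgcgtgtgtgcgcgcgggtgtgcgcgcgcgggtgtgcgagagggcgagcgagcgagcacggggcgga
Nfil3, chr13:52981040-52981289, minus strand: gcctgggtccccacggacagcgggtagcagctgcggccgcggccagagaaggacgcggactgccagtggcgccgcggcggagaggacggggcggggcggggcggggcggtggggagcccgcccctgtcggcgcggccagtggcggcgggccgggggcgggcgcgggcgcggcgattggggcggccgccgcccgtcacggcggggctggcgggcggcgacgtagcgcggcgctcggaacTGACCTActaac

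Per kilobase of exon, the genes fell into abundant and scarce ones. Mean levels over the 61 libraries were 17.6 CPM per kilobase for Bhlhe40, 13.8 for Nfil3, 11.7 for Tef and 10.4 for Bhlhe41, against 2.00 for Dbp, 0.806 for Ciart and 0.530 for Hlf. Ciart had 0 to 72 counts in a library and Hlf had 5 to 97, so counting error weighs on both. Ciart had 0 counts in 3 libraries (acute DTR+ rest, acute DTR+ day 7 and DTR- rest of the training experiment), which allow up to 0.374, 0.334 and 0.553 CPM for counting error only.

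**Figure D1:**
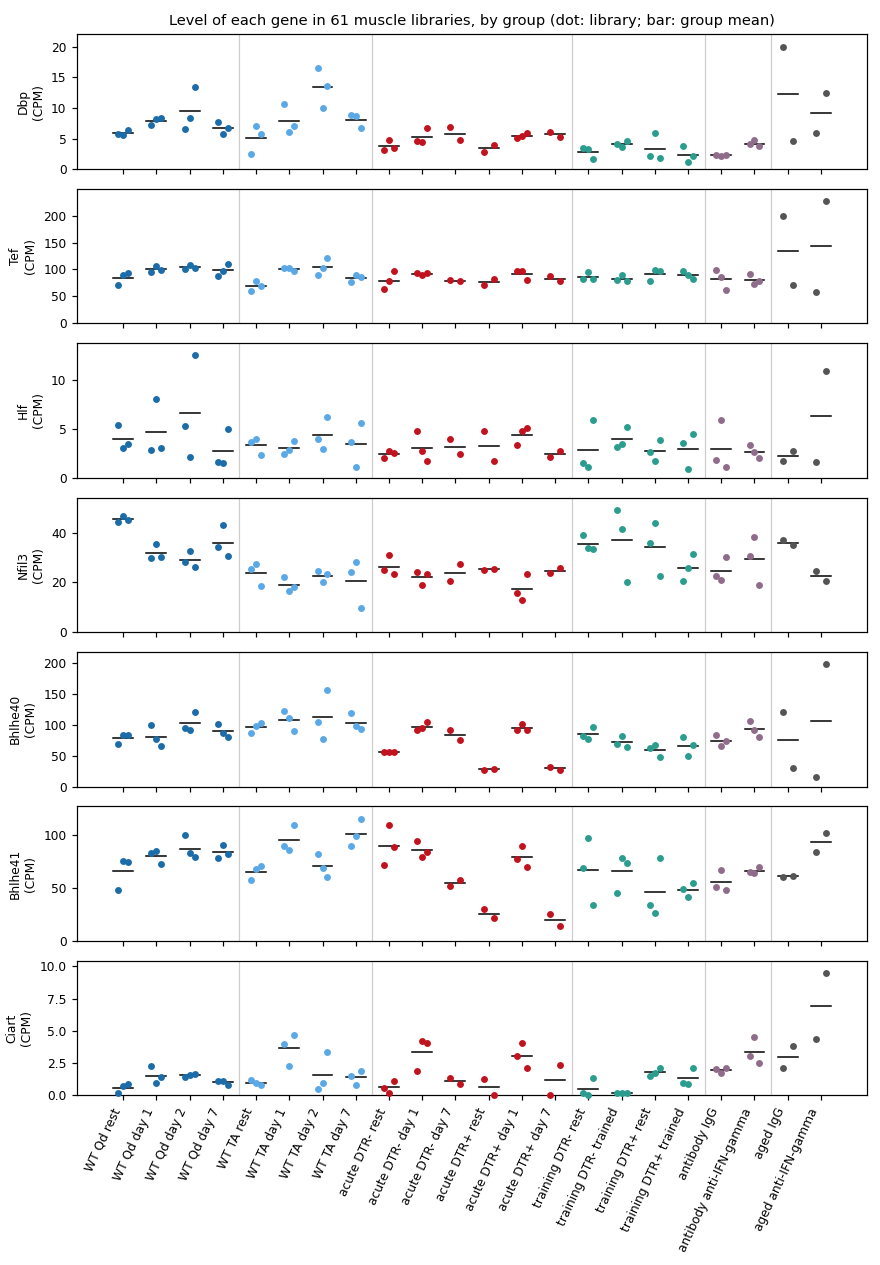
Level of each of the 7 genes in CPM (vertical axes, starting at 0) in every library, by group (horizontal axis). Dots are libraries and bars are group means. Tef has the flattest profile apart from the aged libraries, which spread from 58.7 to 227 CPM; Bhlhe40 and Bhlhe41 are lowest in the acute DTR+ groups at rest and day 7.

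Across the 22 groups the span of the means differed by gene. In CPM the highest group mean was 2.05 times the lowest for Tef, 2.63 times for Nfil3 and 2.96 times for Hlf. It was 4.07 times for Bhlhe40, 5.19 times for Bhlhe41 and 5.96 times for Dbp. These spans depend on the scaling. With TMM-scaled library sizes they were 2.104, 2.612, 2.758, 2.879, 3.998 and 6.677 for the same genes in that order. With mitochondrially encoded genes left out, Bhlhe40, Bhlhe41 and Dbp had spans of 3.32, 4.382 and 5.811. For Ciart, the ratio of summed levels between aged mice given anti-interferon-gamma (114 counts) and trained DTR- mice (3 counts) was 38.4. Its exact 95% interval of 12.8 to 189 covers counting error only and not the spread between animals. Both groups were picked as the highest and lowest of the 22, which the interval does not allow for. Groups next to each other in these orders almost always overlapped: of 21 neighbouring pairs per gene, 1 did not overlap for Bhlhe40 (acute DTR+ day 7 below acute DTR- rest), 1 for Ciart (trained IgG below aged IgG) and 0 for the other 5 genes. Dbp was lowest in trained DTR+ mice given IgG (2.24 ± 0.0639 CPM, SD, n = 3) and highest in wild-type TA at day 2 (13.4 ± 3.23, n = 3). Tef was lowest in resting TA (69.8 ± 9.43, n = 3) and highest in aged mice given anti-interferon-gamma (143 ± 119, n = 2). Outside the aged mice its highest mean was 104 CPM, in TA at day 2. Nfil3 was highest in resting wild-type quadriceps and lowest at day 1 in acute DTR+ mice. Hlf was lowest in aged mice given IgG (2.24 ± 0.785, n = 2) and highest in quadriceps at day 2 (6.65 ± 5.36, n = 3). Bhlhe40 was lowest in acute DTR+ mice at rest (27.7 ± 0.892, n = 2) and highest in TA at day 2 (113 ± 40.2, n = 3). Bhlhe41 was highest in TA at day 7 (102 ± 13.1, n = 3) and lowest in acute DTR+ mice at day 7 (19.6 ± 8.20, n = 2). The experiments were separate cohorts, so levels set across them are given as a description.

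At rest, the 2 muscles of wild-type mice differed in 1 of the 7 genes. Nfil3, the D-box repressor, was 45.4 ± 1.25 CPM in quadriceps (44.4, 46.8 and 45.2) and 23.9 ± 4.52 CPM in TA (25.5, 27.4 and 18.8; SD, n = 3 each). All 3 quadriceps libraries lay above all 3 TA libraries. The log2 difference of quadriceps from TA was 0.93 (SE 0.23, adjusted p = 0.0418, edgeR quasi-likelihood test with Benjamini-Hochberg adjustment over all genes). Bhlhe40 was 68.9, 83.1 and 83.7 CPM in quadriceps and 87.0, 98.4 and 102 CPM in TA, also without overlap, with a difference of -0.29 (SE 0.19, adjusted p = 0.657). A gene is said to be called, to rise or to fall where this adjusted p is under 0.05. Overlap of libraries between groups is given here and below as a description only. The share of all genes without overlap was not counted. Of all 13819 genes tested 1.30% were called. Leaving out any 1 of the 6 libraries ended the Nfil3 call (adjusted p = 0.0831 to 0.229) with differences of 0.79 to 1.02. The summed endothelial markers were 215 to 259 CPM in quadriceps and 310.5 to 321 CPM in TA, the muscle fibre markers 175200 to 177600 against 155300 to 162000, and the T and NK cell markers 4.15 to 5.65 against 0.896 to 3.95, and their part in the difference was not tested. The core clock genes, a list of 15, had 0 called in either direction, and Arntl differed by 0.07 (SE 0.21, adjusted p = 0.961). Of 12 clock-controlled genes of muscle, 1 was called: Tbc1d1, a regulator of glucose uptake, was lower in quadriceps (log2 difference -1.27, SE 0.17, adjusted p = 6.39e-05).

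After acute exercise in wild-type mice none of the 7 genes passed the threshold in either muscle, while Arntl fell in both at day 1. The PAR bZIP gene Dbp had its highest mean at day 2 in both muscles, Tef its highest at day 2, and Nfil3 had lower means than at rest at all 3 times in both muscles. The values below describe levels. The 3 times of a muscle share the same resting libraries. At day 1 some summed markers lay below rest without overlap. In TA these were fibro-adipogenic (630 to 888 CPM against 1150 to 1366) and endothelial (271 to 279 against 310.5 to 321). Macrophage (58.4 to 76.0 against 80.5 to 107), adipocyte and satellite cell markers were lower too. In quadriceps these were fibro-adipogenic (781 to 971 against 975 to 1249) and satellite cell markers (14.4 to 15.4 against 21.3 to 26.7). Later times also lay apart from rest without overlap. Quadriceps satellite cell markers were lower at day 2 (13.3 to 16.2) and day 7 (11.3 to 19.8). In TA, adipocyte markers were lower at day 2 (76.0 to 105.7 against 107.6 to 118.8) and endothelial markers at day 7 (273.9 to 293.5). Muscle fibre markers in TA were higher at day 7 (169200 to 172300 against 155300 to 162000). Their part in the differences was not tested.

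**Figure D2:**
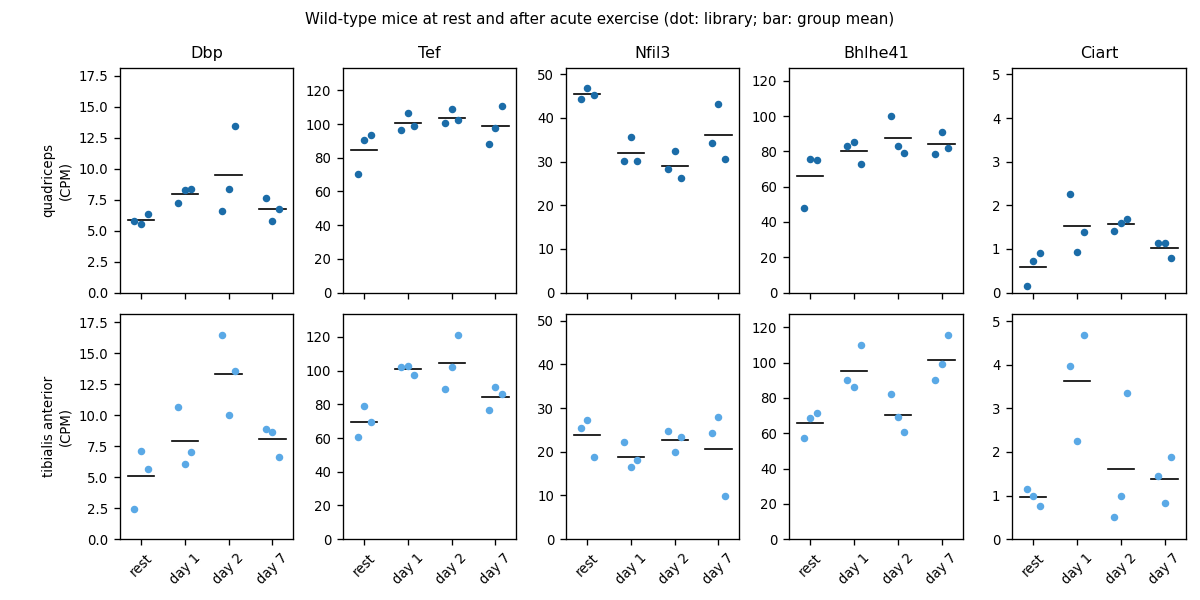
Levels of 5 of the 7 genes in CPM (vertical axes, the same for both muscles of a gene, starting at 0) in wild-type quadriceps (upper row) and tibialis anterior (lower row) at rest and 1, 2 and 7 days after exercise (horizontal axes). Dots are libraries and bars are means of 3. Nfil3 sits at 44.4 to 46.8 CPM in resting quadriceps and at 26.3 to 35.6 CPM at days 1 and 2; Dbp reaches 10.0 to 16.5 CPM in tibialis anterior at day 2.

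Dbp was 5.74, 5.51 and 6.36 CPM in resting quadriceps and 6.61, 8.35 and 13.5 at day 2. In TA it was 2.43, 7.09 and 5.69 CPM at rest and 16.5, 10.0 and 13.5 at day 2. In both muscles the day 2 libraries lay above all resting ones. The log2 differences at day 2 were 0.70 (SE 0.31, adjusted p = 0.511) in quadriceps and 1.46 (SE 0.36, adjusted p = 0.204) in TA, and the difference between the muscles was -0.75 (SE 0.47, adjusted p = 0.956, quadriceps minus TA). Tef was 60.4, 79.3 and 69.6 CPM in resting TA, 102, 103 and 97.4 at day 1 and 89.4, 102 and 121 at day 2. All 6 later libraries lay above the 3 resting ones. The log2 differences were 0.57 (SE 0.12, adjusted p = 0.101) at day 1 and 0.62 (SE 0.12, adjusted p = 0.0751) at day 2. In quadriceps Tef was 70.4 to 93.7 CPM at rest, 96.2 to 106 at day 1 and 100.5 to 109 at day 2, again without overlap with rest, and the differences were 0.26 (SE 0.12, adjusted p = 0.563) and 0.31 (SE 0.12, adjusted p = 0.397). DESeq2 called Tef in TA at day 1 (adjusted p = 0.00517) and at day 2 (adjusted p = 7.24e-04). Hlf overlapped with rest at all times in both muscles, with log2 differences of -0.52 to 0.74 and SEs of 0.52 to 0.63.

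Nfil3 in quadriceps, from the resting values above, was 30.0, 35.6 and 30.2 CPM at day 1, 28.2, 32.4 and 26.3 at day 2 and 34.2, 43.3 and 30.5 at day 7. All 9 libraries lay below the 3 resting ones. The log2 differences were -0.49 (SE 0.16, adjusted p = 0.267), -0.63 (SE 0.16, adjusted p = 0.132) and -0.31 (SE 0.16, adjusted p = 0.667), and DESeq2 called the middle value (adjusted p = 0.0197). In TA, Nfil3 overlapped with rest at all 3 times, and the differences were -0.30, -0.03 and -0.13 (SE 0.28 each).

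Of the E-box repressors, Bhlhe41 was 57.5, 68.4 and 71.2 CPM in resting TA, 90.3, 86.4 and 109.8 at day 1 and 90.0, 99.2 and 116 at day 7. Day 1 and day 7 did not overlap with rest, while day 2 (82.0, 69.1 and 60.4) did. The log2 differences were 0.58 (SE 0.15, adjusted p = 0.223) at day 1 and 0.70 (SE 0.15, adjusted p = 0.189) at day 7. DESeq2 called both (adjusted p = 0.0393 and 0.00688). In quadriceps the Bhlhe41 differences were 0.30 at day 1, 0.42 at day 2 and 0.37 at day 7 (SE 0.15 each, adjusted p = 0.641, 0.373 and 0.552). Bhlhe40 overlapped with rest at every time in TA. In quadriceps it did not at day 2, with 94.98, 92.1 and 121 CPM against 68.9, 83.1 and 83.7, a log2 difference of 0.40 (SE 0.15, adjusted p = 0.392).

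Ciart, the BMAL1 repressor with 3 E-boxes before its start, was 1.15, 0.989 and 0.769 CPM in resting TA and 3.97, 2.24 and 4.69 at day 1. The groups did not overlap, and the log2 difference was 1.92 (SE 0.70, adjusted p = 0.457). In quadriceps it was 0.140, 0.725 and 0.908 CPM at rest and 2.26, 0.928 and 1.39 at day 1, a difference of 1.36 (SE 0.78, adjusted p = 0.730).

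By count, edgeR called 0 of the 7 at each time in each muscle, where it called 0.582%, 0.299% and 0.214% of all genes in quadriceps at days 1, 2 and 7 and 0.0552%, 0.0630% and 0.0158% in TA. At an unadjusted p under 0.05 there were 2 of 7 at day 1 in quadriceps (Nfil3 and Tef) against 8.23% of all genes, 5 at day 2 (all but Hlf and Ciart) against 8.96% and 1 at day 7 (Bhlhe41) against 7.91%. In TA there were 3 at day 1 (Tef, Bhlhe41 and Ciart) against 8.15%, 2 at day 2 (Dbp and Tef) against 7.53% and 2 at day 7 (Tef and Bhlhe41) against 5.62%. DESeq2 called Nfil3 in quadriceps at day 2, where it called 1.13% of all genes, and 0 members there at days 1 and 7. In TA it called 2 at day 1 (Tef and Bhlhe41), 1 at day 2 (Tef) and 1 at day 7 (Bhlhe41), where it called 0.622%, 0.512% and 0.197% of all genes. The median log2 difference of the 7 genes was 0.26, 0.42 and 0.22 in quadriceps and 0.57, 0.43 and 0.34 in TA, while the median of all genes tested lay between -0.01 and 0.00. Tests of a difference between the muscles called 0 of the 7 at days 1, 2 and 7, with 0 at an unadjusted p under 0.05 and 0 by DESeq2, and called 0.0434%, 0.00724% and 0.0796% of all genes.

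Among the 15 core clock genes, Arntl, the activator on which the loop depends, fell at day 1 in quadriceps (log2 difference -1.05, SE 0.22, adjusted p = 0.0356) and in TA (-1.17, SE 0.18, adjusted p = 0.0283), and in TA at day 2 (-1.17, SE 0.18, adjusted p = 0.0182). In quadriceps at day 2 it was -0.98 (SE 0.22, adjusted p = 0.0765). At day 7 it was -0.44 (SE 0.22, adjusted p = 0.657) in quadriceps and -0.52 (SE 0.18, adjusted p = 0.737) in TA. Per3, a repressor of the loop, rose at day 2 in both muscles (1.20, SE 0.24, adjusted p = 0.0438, and 0.98, SE 0.17, adjusted p = 0.0301). No other gene of the list was called, and 0 of 12 clock-controlled genes, 0 of 12 glucocorticoid-induced genes and 0 of 10 hypoxia-induced genes were called at any time in either muscle.

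In the acute Foxp3-DTR experiment the calls fell on the DEC genes and Nfil3. At rest and at day 7 Bhlhe40 and Bhlhe41 were lower in DTR+ than in DTR- quadriceps, and at day 1 the genotypes did not differ in any of the 7 genes by the test. From rest to day 1 Bhlhe40 rose in both genotypes, and Bhlhe41 rose and Nfil3 fell in DTR+ mice. The DTR+ libraries at rest and day 7 are those that stood apart above, and the 6 groups share libraries between comparisons.

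**Figure D3:**
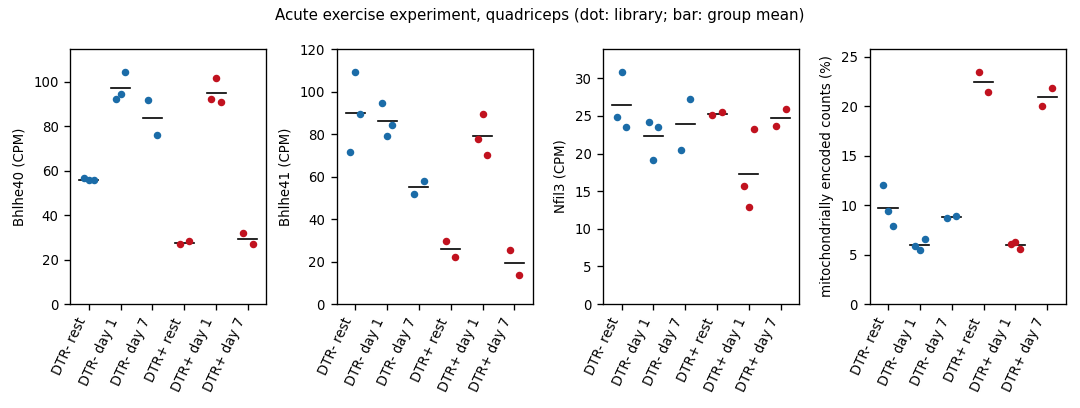
Levels of Bhlhe40, Bhlhe41 and Nfil3 in CPM, and the percentage of counts from mitochondrially encoded genes (vertical axes, starting at 0), in quadriceps of the acute experiment by genotype and time (horizontal axes). Dots are libraries (blue DTR-, red DTR+) and bars are means. Bhlhe40 is 27.0 to 31.8 CPM in the 4 DTR+ libraries at rest and day 7, in which 20.01% to 23.5% of counts are mitochondrially encoded, and 90.9 to 104 CPM in the 6 libraries of day 1, in which 5.44% to 6.56% are.

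Bhlhe40 was 56.7, 55.6 and 55.6 CPM in DTR- mice at rest and 27.0 and 28.3 CPM in DTR+ mice. At day 7 it was 91.6 and 75.8 CPM in DTR- mice and 31.8 and 27.0 CPM in DTR+ mice. At day 1 it was 92.0, 94.4 and 104 CPM in DTR- mice and 92.3, 102 and 90.9 CPM in DTR+ mice. The genotypes were thus separate at rest and day 7 and overlapped at day 1. The log2 difference of DTR+ from DTR- was -0.71 (SE 0.16, adjusted p = 0.00206) at rest, -1.22 (SE 0.17, adjusted p = 3.25e-05) at day 7 and 0.00 (SE 0.13, adjusted p = 1.00) at day 1. After removal from each library of a trend on length and GC content of the transcripts, the resting difference was -0.37 (SE 0.16, adjusted p = 0.102) and no longer called, and that at day 7 was -0.95 (adjusted p = 5.57e-04).

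Bhlhe41 was 71.8, 109 and 89.3 CPM in DTR- mice at rest and 29.8 and 21.9 CPM in DTR+ mice. At day 7 it was 51.8 and 58.0 CPM against 25.4 and 13.8. At day 1 it was 94.9, 79.0 and 84.3 CPM against 77.8, 89.5 and 70.0. The pattern matches that of Bhlhe40, with separate genotypes at rest and day 7 and overlap at day 1. The log2 differences were -1.49 (SE 0.24, adjusted p = 9.35e-05) at rest, -1.20 (SE 0.25, adjusted p = 0.00146) at day 7 and -0.10 (SE 0.19, adjusted p = 1.00) at day 1. Both calls held with the trend removed (-1.53 and -1.13, adjusted p = 1.39e-04 and 0.00390). With each of the 4 libraries of day 7 left out in turn, that difference ranged from -1.74 to -0.84 and was called each time.

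The other members of these genotype comparisons overlapped between groups. Tef was 71.5 and 83.1 CPM in DTR+ mice at rest and 63.0, 78.7 and 96.4 CPM in DTR- mice, a log2 difference of 0.27 (SE 0.16, adjusted p = 0.233). With the trend removed, Tef was higher in DTR+ mice at rest by 0.76 (SE 0.15, adjusted p = 0.00107) and at day 7 by 0.89 (SE 0.17, adjusted p = 7.03e-04), and Nfil3 at rest by 0.77 (SE 0.25, adjusted p = 0.0349). In CPM the resting means were lower in DTR+ mice for Tef (77.3 against 79.3) and Nfil3 (25.3 against 26.4). At day 7 the Tef means were 83.1 CPM in DTR+ and 79.5 in DTR- mice. By count, 2 of 7 were called at rest, both lower, against 26.6% of all genes, and 2 at day 7, both lower, against 25.3%. At day 1, 0 of 7 were called by edgeR or DESeq2, 0 had an unadjusted p under 0.05, and 0.00% of all genes were called. At rest and day 7 the share called is therefore near that of all genes. Of the genes called over the whole table, 45.4% were higher in DTR+ mice at rest and 44.7% at day 7, and 60.0% and 59.6% with the trend removed. The median log2 difference of all genes was -0.06 at rest and -0.10 at day 7. Relative to it, Bhlhe40 and Bhlhe41 differed by -0.65 and -1.43 at rest and by -1.11 and -1.10 at day 7. The summed level of 7 T and NK cell markers was 19.8 to 65.1 CPM in DTR+ mice at day 7 against 4.01 to 7.25 CPM in DTR- mice, and 5.43 to 8.85 against 4.81 to 6.43 CPM at rest, where Cd3d, Lck, Nkg7, Trac and Cd8a were at 0 in DTR+ mice. At day 7 the macrophage markers (7) were 289 to 522 CPM in DTR+ against 206 to 246 CPM in DTR- mice, the endothelial markers (5) 109 to 122 against 165 to 202, the fibro-adipogenic markers (6) 1199 to 1404 against 1461 to 1710, and the satellite cell markers (4) 10.7 to 20.7 against 20.9 to 26.6. At rest the endothelial markers were 115.6 to 120.2 CPM in DTR+ against 136 to 165 CPM in DTR- mice, the satellite cell markers 8.65 to 10.97 against 21.9 to 27.0, and the muscle fibre markers 188500 to 201800 against 207300 to 215100. The other marker lists (adipocyte and erythroid at both times, muscle fibre at day 7, macrophage and fibro-adipogenic at rest) overlapped between genotypes. The part of these markers in the differences was not tested.

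From rest to day 1 in DTR- mice, Bhlhe40 rose by a log2 difference of 0.54 (SE 0.13, adjusted p = 0.00888), from 55.9 ± 0.623 to 96.9 ± 6.57 CPM (SD, n = 3 each). It was the 1 member called of 7, where 16.4% of all genes were called, a share near that of the members. Fitted without the DTR+ libraries of rest and day 7, an alternative chosen after seeing the data, the rise was 0.52 (SE 0.14, adjusted p = 0.0104). Ciart was 0.545, 0.209 and 1.11 CPM at rest and 1.90, 4.22 and 4.07 at day 1, without overlap, a difference of 2.19 (SE 0.95, adjusted p = 0.126). Without those DTR+ libraries Ciart was called (2.18, SE 0.60, adjusted p = 0.0141), and likewise with the 2 groups fitted alone (2.20, SE 0.65, adjusted p = 0.0252). Bhlhe41 overlapped, with a difference of -0.31 (SE 0.19, adjusted p = 0.302), and was called lower with the trend removed (-0.65, SE 0.20, adjusted p = 0.0349). Nfil3 differed by -0.50 (SE 0.23, adjusted p = 0.144). The summed endothelial markers were 208 to 215 CPM at day 1 against 136 to 165 at rest, the muscle fibre markers 154900 to 166400 against 207300 to 215100, and the fibro-adipogenic markers 1217 to 1468 against 1484 to 1864, and their part in these differences was not tested.

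In DTR+ mice, day 1 against rest called 3 of the 7 genes, against 42.4% of all genes, again a share near that of all genes. Bhlhe40 rose by 1.24 (SE 0.16, adjusted p = 2.49e-06) and Bhlhe41 by 1.07 (SE 0.23, adjusted p = 8.72e-04), from the levels given above. Nfil3 was 25.1 and 25.6 CPM at rest and 15.7, 12.8 and 23.3 CPM at day 1. The Nfil3 groups did not overlap, and it fell by 1.07 on the log2 scale (SE 0.25, adjusted p = 0.00175). All 3 calls held with the trend removed (0.90, 0.73 and -1.48). Tef was then also called lower (-1.12, SE 0.15, adjusted p = 5.68e-06), and without that step it was not (-0.29, SE 0.16, adjusted p = 0.161). In CPM, however, Tef had a higher mean at day 1 (98.0, 97.5 and 79.6) than at rest (71.5 and 83.1), with overlap. The direction for Tef thus depends on the scaling. The median log2 difference of all genes was 0.28 here, and relative to it Bhlhe40 differed by 0.96, Bhlhe41 by 0.80 and Nfil3 by -1.35. Of all genes called, 57.3% were higher at day 1, and 42.8% with the trend removed. In DTR- mice the same split was 49.8% and 37.1%. Summed levels of 6 of the 8 marker lists also did not overlap between rest and day 1 in DTR+ mice. Their summed levels were 193 to 228 CPM at day 1 against 115.6 to 120.2 at rest for endothelial cells, and 20.3 to 27.5 against 8.65 to 10.97 for satellite cells. They were lower at day 1, without overlap, for muscle fibres (158300 to 171300 against 188500 to 201800 CPM), fibro-adipogenic cells (1021 to 1308 against 1487 to 1721), erythroid cells (104 to 116 against 118 to 149) and T and NK cells (2.86 to 4.14 against 5.43 to 8.85). Their part in the differences was not tested. Ciart was 1.23 and 0 CPM at rest and 3.03, 4.04 and 2.12 CPM at day 1, a difference of 1.74 (SE 1.11, adjusted p = 0.219).

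The change from rest to day 1 differed between DTR+ and DTR- mice for both DEC genes. For Bhlhe40 the changes were 1.24 in DTR+ and 0.54 in DTR- mice. For Bhlhe41 they were 1.07 in DTR+ and -0.31 in DTR- mice, the latter not called. The difference between the genotypes' changes was 0.70 for Bhlhe40 (SE 0.20, adjusted p = 0.0226) and 1.39 for Bhlhe41 (SE 0.30, adjusted p = 0.00340). These were 2 of 7 called, against 15.3% of all genes. With the trend removed Bhlhe40 was not called (0.39, SE 0.21, adjusted p = 0.246), Bhlhe41 was (1.38, SE 0.31, adjusted p = 0.00607), and Tef was called in the other direction (-0.77, SE 0.20, adjusted p = 0.0167). Of all differences called, 57.4% were positive, and 40.1% with the trend removed. Without DTR+ rest replicate 2 or 3, Bhlhe40 had an adjusted p of 0.0799 or 0.0622, with differences of 0.71 and 0.73.

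At day 7 against rest, edgeR and DESeq2 called 0 of the 7 genes in either genotype and 0 for the difference between genotypes. In DTR- mice Bhlhe41 (51.8 and 58.0 CPM against 71.8 to 109) and Bhlhe40 (75.8 and 91.6 CPM against 55.6 to 56.7) had an unadjusted p under 0.05, with log2 differences of -0.81 (SE 0.23, adjusted p = 0.302) and 0.47 (SE 0.15, adjusted p = 0.389). Neither overlapped with rest. These were 2 of 7 against 7.76% of all genes at that unadjusted p, and 0.00702% of all genes were called. In DTR+ mice 0 of 7 had such a p, and 1.01% of all genes were called. For the difference between genotypes Bhlhe40 alone had it (-0.51, SE 0.23, adjusted p = 0.466), 1 of 7 against 9.79% of all genes, and 0.0772% of all genes were called.

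Several core clock genes were called in the same comparisons. From rest to day 1, 7 of the 15 rose and 1 fell in DTR- mice, where 16.4% of all genes were called. Nr1d2 (REV-ERB-beta) rose by 1.53 (SE 0.19, adjusted p = 2.96e-05), Per1 by 3.26 (SE 0.59, adjusted p = 9.09e-04), Per3 by 0.92 (SE 0.18, adjusted p = 0.00136) and Per2 by 2.36 (SE 0.53, adjusted p = 0.00480), and Arntl fell by 0.77 (SE 0.19, adjusted p = 0.00840). In DTR+ mice 8 rose and 1 fell, where 42.4% of all genes were called. Cry2 (2.71, SE 0.31, adjusted p = 6.61e-07) and Nr1d1 (2.23, SE 0.30, adjusted p = 4.29e-06) had the smallest p-values of the list, Per1 rose by 3.06 (SE 0.70, adjusted p = 0.00141), and Arntl was 0.28 (SE 0.22, adjusted p = 0.322). The list's median was 0.47 and 1.01, against 0.09 and 0.28 for all genes. For DTR+ against DTR- mice, 3 were higher and 4 lower at rest and 2 higher and 2 lower at day 7, where 26.6% and 25.3% of all genes were called, so that the count at day 7 is near that of all genes. At rest Per3 was higher (1.02, SE 0.19, adjusted p = 5.57e-04), and Cry2 (-1.54, SE 0.31, adjusted p = 8.54e-04), Nr1d1 (-1.30, SE 0.29, adjusted p = 0.00221) and Arntl (-0.71, SE 0.22, adjusted p = 0.0208) were lower. At day 1, 0 of 15 were called between genotypes. The test of the difference between the genotypes' changes from rest to day 1 called 3 of 15 positive and 1 negative, against 15.3% of all genes. The genes called by edgeR were Cry2 (1.75, SE 0.38, adjusted p = 0.00346), Nr1d1 (1.41, SE 0.37, adjusted p = 0.012), Arntl (1.04, SE 0.29, adjusted p = 0.0173) and Per3 (-1.04, SE 0.26, adjusted p = 0.00920).

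The other lists had calls in both directions there, in numbers to be read against the shares of all genes called given above (16.4% at day 1 in DTR- mice, 42.4% in DTR+ mice, 26.6% between genotypes at rest). Of 12 clock-controlled genes, 2 rose and 1 fell at day 1 in DTR- mice and 5 rose and 2 fell in DTR+ mice. Usp2, a deubiquitinase that cycles in many tissues, rose by 0.44 (SE 0.15, adjusted p = 0.0445) and by 1.53 (SE 0.18, adjusted p = 7.03e-07). At rest 2 were higher and 4 lower in DTR+ than in DTR- mice, among them Ucp3 (-1.38, SE 0.19, adjusted p = 2.15e-05) and Usp2 (-1.25, SE 0.17, adjusted p = 2.80e-05). Of 12 glucocorticoid-induced genes, 3 rose and 1 fell at day 1 in DTR- mice and 3 rose and 3 fell in DTR+ mice. Zbtb16 rose in both, by 1.45 (SE 0.34, adjusted p = 0.00570) and 3.44 (SE 0.47, adjusted p = 6.16e-06). Of 10 hypoxia-induced genes, 1 rose and 1 fell in DTR- mice, and 3 rose and 2 fell in DTR+ mice. Higd1a, a mitochondrial protein of the hypoxia response, fell in both (-0.91, SE 0.15, adjusted p = 3.65e-04, and -2.11, SE 0.16, adjusted p = 4.13e-09).

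**Figure D4:**
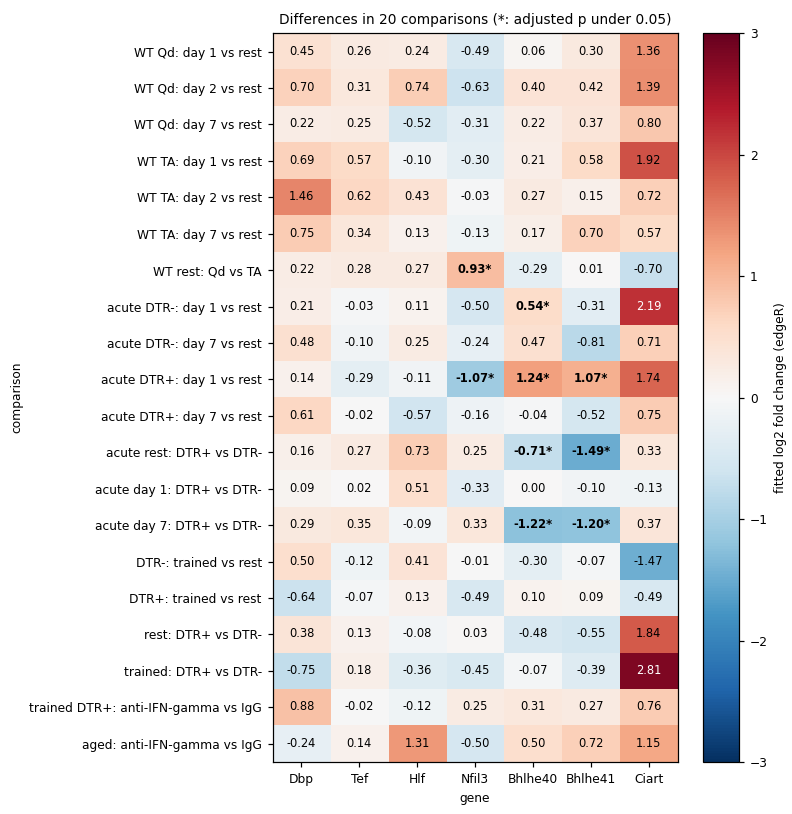
Fitted log2 difference of each of the 7 genes (columns) in 20 comparisons of group pairs (rows), printed in each cell and coloured from blue (lower) to red (higher). An asterisk marks an adjusted p under 0.05 by edgeR; all marked cells are in resting quadriceps against tibialis anterior (Nfil3) or in the acute Foxp3-DTR experiment (Nfil3, Bhlhe40 and Bhlhe41).

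In the training experiment none of the 7 genes was called. Trained DTR- mice had the lowest group mean of Ciart in the series, although 3 libraries of other groups had 0 counts. Trained DTR+ mice had more than trained DTR- mice in every library. Ciart was 0.166, 0.190 and 0.163 CPM in trained DTR- mice, 1 count in each library, and 0.964, 0.865 and 2.10 CPM in trained DTR+ mice. The groups did not overlap. The ratio of the groups' summed levels, from 23 and 3 counts, was 7.53 with an exact 95% interval of 2.27 to 39.2. This interval covers counting error only and not the spread between animals. It also does not allow for trained DTR- mice having the lowest Ciart mean of all groups. The fitted log2 difference, which takes in the spread between animals, was 2.81 (SE 1.07, adjusted p = 0.405). At rest Ciart was 0.140, 0 and 1.35 CPM in DTR- mice and 1.52, 1.73 and 2.08 CPM in DTR+ mice, again without overlap. The fitted difference was 1.84 (SE 0.92, adjusted p = 0.978).

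Bhlhe40 was 82.7, 77.0 and 96.3 CPM in DTR- mice at rest and 62.3, 66.8 and 47.3 CPM in DTR+ mice. The groups did not overlap, and the log2 difference was -0.48 (SE 0.21, adjusted p = 0.967). In trained mice it was 64.4 to 82.2 CPM against 49.8 to 80.5, with overlap. Dbp in DTR- mice was 3.37, 3.32 and 1.69 CPM at rest and 4.14, 3.62 and 4.58 CPM after training. The log2 difference was 0.50 (SE 0.57, adjusted p = 1.00). Nfil3, Tef, Hlf and Bhlhe41 overlapped in all 4 comparisons. The DTR+ libraries at rest varied in depth (3359683 to 8655927 counts) and in the slope on transcript length (-0.267 to 0.290). Some summed markers did not overlap either. At rest, macrophage markers were 177 to 193 CPM in DTR- and 279.5 to 311 in DTR+ mice, and adipocyte markers were lower in DTR+ mice. In trained mice, fibro-adipogenic markers were 1800 to 2053 CPM in DTR- and 1442 to 1645 in DTR+ mice. With training in DTR- mice, endothelial (247 to 270 to 335 to 390), macrophage and adipocyte markers were higher and muscle fibre markers lower. The part of these markers was not tested.

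By count, edgeR and DESeq2 called 0 of the 7 in each training comparison. Of all genes, edgeR called 0.103% for training in DTR- mice, 2.21% for training in DTR+ mice, 0.0477% between genotypes at rest, 0.890% between trained genotypes and 0.270% for the difference between the training responses. At an unadjusted p under 0.05 there was 1 of 7 between genotypes at rest (Bhlhe40) against 5.10% of all genes, 1 between trained genotypes (Ciart) against 7.80%, and 0 in the other 3. In the core clock list 0 of 15 were called in each. Arntl was 72.1 to 81.6 CPM in trained DTR+ mice and 52.1 to 62.1 CPM in trained DTR- mice, without overlap, with a difference of 0.49 (SE 0.18, adjusted p = 0.386). Of 12 clock-controlled genes, Hk2, a hexokinase, rose with training in DTR+ mice (0.83, SE 0.18, adjusted p = 0.0155). Cdkn1a, a cell-cycle inhibitor and clock-controlled gene, and Fkbp5, a glucocorticoid-induced chaperone, were higher in trained DTR+ than in trained DTR- mice (1.56, SE 0.32, adjusted p = 0.0168, and 1.30, SE 0.29, adjusted p = 0.0345).

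In trained DTR+ mice given antibodies, 0 of the 7 genes were called. Dbp and Ciart had higher levels with anti-interferon-gamma than with IgG in every library. This separation is a description only, as its share over all genes was not counted. Dbp was 2.22, 2.19 and 2.31 CPM with IgG and 4.03, 4.70 and 3.73 CPM with anti-interferon-gamma. The groups did not overlap, and the log2 difference was 0.88 (SE 0.37, adjusted p = 0.414). Ciart was 2.04, 1.75 and 2.12 CPM with IgG and 3.02, 4.54 and 2.54 CPM with anti-interferon-gamma, also without overlap, with a difference of 0.76 (SE 0.42, adjusted p = 0.589). Bhlhe40 was 66.2 to 83.0 CPM with IgG and 80.3 to 106 CPM with anti-interferon-gamma. The Bhlhe40 ranges overlapped, with a difference of 0.31 (SE 0.13, adjusted p = 0.381). By edgeR and by DESeq2 0 of 7 were called, and edgeR called 1.35% of all genes. At an unadjusted p under 0.05 there were 2 of 7 (Dbp and Bhlhe40) against 10.2% of all genes. Of the core clock list 0 of 15 were called, and Arntl differed by -0.06 (SE 0.11, adjusted p = 0.917). Sgk1, a glucocorticoid-induced kinase, was higher with anti-interferon-gamma (0.46, SE 0.10, adjusted p = 0.0458). The summed level of 7 macrophage markers was 349 to 387 CPM with IgG and 202 to 317 CPM with anti-interferon-gamma, and its part in these differences was not tested.

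The 4 aged libraries varied within each antibody by more than any difference between antibodies in Tef and Bhlhe40. Tef was 199 and 70.9 CPM with IgG and 58.7 and 227 CPM with anti-interferon-gamma. Bhlhe40 was 120.2 and 29.8 CPM with IgG and 15.0 and 198 CPM with anti-interferon-gamma. The same 2 libraries were high in both genes. Their slopes of level on transcript length were 0.185 and 0.776, against -0.478 and -0.570 in the low pair, and the part of this in the levels was not tested. Ciart was 2.14 and 3.86 CPM with IgG and 4.36 and 9.50 CPM with anti-interferon-gamma. Ciart did not overlap, with a log2 difference of 1.15 (SE 1.11, adjusted p = 1.00). Bhlhe41 (60.9 and 61.2 against 84.6 and 102 CPM) and Nfil3 (36.9 and 34.85 against 24.4 and 20.6 CPM) did not overlap either, with differences of 0.72 (SE 0.94) and -0.50 (SE 0.92). With 2 libraries in each group such separation often arises without any difference, and its share over all genes was not counted. Of 7 genes 0 were called by edgeR or DESeq2 and 0 had an unadjusted p under 0.05, and 0.00% of all genes were called.

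Likeness was measured as Pearson's r of log2(CPM + 0.5) across the 61 libraries, after the mean of each experiment was subtracted, among 8897 genes. The libraries share depth and quality differences, so the r values are descriptions. Bhlhe40 was most like Mapk6 (r = 0.905), Eif2ak1 and Usp10 (both 0.888). With the 4 aged libraries left out (57 libraries) these were 0.827, 0.801 and 0.815. Bhlhe41 was most like Agpat1, Csnk2a1 and Gpd1 (0.796, 0.788 and 0.783). Tef was most like Xpo6, Usp25 and Lnpk (0.763, 0.744 and 0.742), which dropped to 0.456, 0.241 and 0.384 without the aged libraries. Ciart was most like Rora, the clock activator that binds ROR elements (0.614), Psmd11 (0.599) and Pcif1 (0.596). Nfil3 was most like Nol7, Txndc5 and Thap11 (0.558, 0.550 and 0.540), and Hlf like Tarbp1, Bcor and Ocrl (0.502, 0.489 and 0.486). Dbp was most like 6430548M08Rik (0.541), its family member Tef (0.527) and Zfp316 (0.524). Among the members themselves the largest r was that of Tef with Bhlhe40 (0.641, and 0.271 without the aged libraries), followed by Dbp with Tef (0.527, and 0.411). Bhlhe40 and Bhlhe41 had r = 0.456, and 0.594 without the aged libraries. Nfil3 had a negative r with 5 of the 6 others, from -0.370 with Ciart to -0.108 with Bhlhe40, and 0.056 with Dbp. With Arntl, Dbp had r = -0.165 and Tef 0.101 over the 61 libraries, and -0.419 and -0.477 without the aged libraries, so that the sign for Tef turned.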

How the data were processed

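Gene counts deposited for 61 libraries of whole muscle (55011 genes) were analysed. The authors' alignment used STAR 2.7.3a and mm10, and counting used featureCounts (no version stated), per the submitters' processing notes. RNA came from TRIzol extraction and went into an ultra-low-input protocol, per the labels' protocols. Strand and annotation of the counting are not stated there. Of the symbols, 52936 matched GENCODE vM21.

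Levels are CPM, counts over the library total. The experiments were fitted in 7 fits with edgeR 4.0.16 in R 4.3.3: filterByExpr by group (minimum count 10, minimum total 15), TMM scaling, quasi-likelihood F tests on group means, and Benjamini-Hochberg adjustment over all genes tested. Fitted log2 differences follow TMM scaling and can differ from ratios of CPM. The SE is the absolute log2 difference over the square root of F. There were 20 comparisons of group pairs and 6 differences of differences. Steps were tested on simulated data. Libraries held 3359683 to 14445336 counts, and 0 counts allow up to 3, for counting error only.

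The members and lists were chosen with earlier results of these data known. The rule for named genes takes all 7 members in every comparison and the 3 genes most alike each member. From each list it takes at most 4 called genes with the smallest p, and Arntl. Some values under this rule are not printed. Among them are called genes of the lists, and Arntl in comparisons where it was not called. Alternatives were DESeq2 1.42.0, RLE scaling, no filter, removal of a trend on length and GC content, mitochondrially encoded genes left out, fits of only the groups compared, a replicate block, and each library left out in turn. Wild-type quadriceps and tibialis anterior carry the same animal numbers and are taken as pairs from 1 animal, although deviations of such pairs correlated little (median r 0.0204, range -0.0329 to 0.0533).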

Additional observations from a re-analysis of the deposited data

Results flagged for a closer look

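The change from rest to day 1 differed between the genotypes of the acute experiment for both DEC genes, by a test of the difference itself. For Bhlhe40 the difference (DTR+ minus DTR-) was 0.70 on the log2 scale, and for Bhlhe41 it was 1.39. Of all genes 15.3% were called in that test. Bhlhe41 kept its call under each alternative run. Bhlhe40 lost it with the trend on length and GC content removed (0.39, adjusted p = 0.246 by edgeR), with this and the replicate block (0.36, adjusted p = 0.350 by edgeR), without the filter on low counts (0.72, adjusted p = 0.130 by edgeR), and without either resting DTR+ library (0.71 and 0.73, adjusted p = 0.0799 and 0.0622 by edgeR). Both rest on the 2 resting DTR+ libraries, in which 21.4% and 23.5% of counts were mitochondrially encoded. The part of this in the difference was not tested.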

How the results depend on the processing

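Counts of members called changed as follows. DESeq2 called 1 in wild-type quadriceps at day 2 and 2, 1 and 1 in tibialis anterior at days 1, 2 and 7, where edgeR called 0. Without the filter on low counts edgeR called 2, 2 and 1 in tibialis anterior, 1 (Bhlhe41) at day 7 in acute DTR- mice and 1 in place of 2 for the difference between genotypes at day 1. At day 1 in acute DTR- mice, 2 in place of 1 were called with the trend on length and GC content removed, with this and the replicate block, with a fit of the compared groups alone, and with the DTR+ libraries of rest and day 7 left out. With the trend removed, 3 in place of 2 were called between acute genotypes at rest (Bhlhe41, Tef and Nfil3) and at day 7, there also with the block. At day 1 in DTR+ mice 4 in place of 3 were called with the trend removed, with this and the block, with the compared groups alone, and without resting DTR+ replicate 2. With 1 library left out, 0 members were called in resting quadriceps against tibialis anterior in each of 6 fits (range 0 to 0), and 1 to 2 for the difference between genotypes at day 1. With the replicate block the calls of members were those without it, among them Nfil3 between muscles (0.94) and Bhlhe40 for the genotype difference at day 1 (0.69, adjusted p = 0.0467 by edgeR). Outside the wild-type and aged libraries, libraries of the same number correlated little (r from -0.156 to 0.0999). Wild-type muscles taken as pairs from 1 animal had r as small (-0.0329 to 0.0533), so this measure cannot tell whether the numbers pair libraries. In the aged libraries same-numbered libraries correlated at -0.652 and crossed ones at 0.652. With 2 libraries a group their deviations from the mean mirror each other, so these are 1 value with opposite signs. Crossing the numbers left 0 called. Over the whole table, calls between resting muscles were 180, against 298 by DESeq2 and 302 without the filter. Between acute genotypes at day 7 they were 3608, of which 44.7% were higher in DTR+ mice, against 2028 and 55.3% with only these groups. Groups of 2 or 3 libraries and the low counts of Hlf and Ciart limit what could be seen.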
